A study of Mus musculus with 2 samples.

Results

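Urokinase (Plau), tissue plasminogen activator (Plat), the urokinase receptor (Plaur), protease nexin-1 (Serpine2), tissue factor pathway inhibitor (Tfpi), tissue factor (F3), thrombomodulin (Thbd), the endothelial protein C receptor (Procr) and von Willebrand factor (Vwf) were followed in mouse embryonic endothelial cells with and without Cre-mediated deletion of Snail1. Members were taken as the probe sets whose annotation carried exactly 1 of these 9 gene symbols. Of the 9 genes, 8 had such a probe set, 13 probe sets in all out of 34945 with a single symbol. Serpine2 was not analysed here. The Snail1 KO group was Snail1 f/f endothelial cells of strain C57/BL6, isolated from embryos at E10.5 and infected with an adenovirus carrying Cre. The WT group was the same kind of floxed cells given an adenovirus carrying β-galactosidase, so both groups bore the floxed allele and a virus. Each group was 1 Affymetrix array of cultured primary cells, and the labels do not say how many embryos were pooled. No array holds Cre-treated cells without the floxed allele, so loss of Snail1 and an effect of Cre cannot be told apart for any gene below. With 1 array per group no difference was tested, and no error between cultures can be given.

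Plasminogen activators are serine proteases that convert plasminogen to plasmin, which dissolves fibrin and helps cells to clear matrix. Coagulation starts when tissue factor binds factor VII, and resting endothelium is known to oppose it through tissue factor pathway inhibitor, through thrombomodulin, which turns thrombin towards the activation of protein C, and through the endothelial protein C receptor. Von Willebrand factor, stored in the Weibel-Palade bodies of endothelial cells, tethers platelets. Snail1 is a zinc finger repressor known to bind E-box sequences.

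Promoter sequences are given for members of the set that RefSeq windows covered. The windows (build GRCm38.p6), running 250 bases before to 50 bases after an annotated start, matched 5 of the 9 genes in 6 windows. The AP-1 motif TGAGTCA, or its reverse complement TGACTCA, occurred once each in the windows of F3, Procr and Plaur, and was present in 5.20% of all 32851 windows. Counted from the start on which each window is built, it began 135 bases before in F3, 154 bases before in Procr and 69 bases before in Plaur. A gene can have several annotated starts: the F3 start is the first of the gene, while the Procr match lies 62 bases before the first annotated start of Procr. The whole Plaur window lies downstream of the first annotated start of that gene, so its match is upstream of a later start only. These 3 genes and Tfpi, which had no AP-1 match, are shown with any AP-1 match in capitals. The stretches of F3, Procr and Tfpi end before the first annotated start of the gene, and for Plaur, with no base of its window before that start, only the bases around the match are given. F3 lies at chr3:121723287-121723536 on the plus strand, Procr at chr2:155750967-155751124 on the plus strand, Tfpi at chr2:84476776-84477009 on the minus strand and Plaur at chr7:24462403-24462431 on the plus strand.
F3: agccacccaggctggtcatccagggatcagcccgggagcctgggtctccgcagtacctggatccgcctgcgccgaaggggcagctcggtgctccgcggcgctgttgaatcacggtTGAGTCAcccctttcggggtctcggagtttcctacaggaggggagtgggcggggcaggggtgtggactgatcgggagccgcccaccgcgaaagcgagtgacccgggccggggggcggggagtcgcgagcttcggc
Procr: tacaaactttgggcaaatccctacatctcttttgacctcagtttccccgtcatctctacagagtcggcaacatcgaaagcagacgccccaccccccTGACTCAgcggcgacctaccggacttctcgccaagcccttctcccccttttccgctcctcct
Tfpi: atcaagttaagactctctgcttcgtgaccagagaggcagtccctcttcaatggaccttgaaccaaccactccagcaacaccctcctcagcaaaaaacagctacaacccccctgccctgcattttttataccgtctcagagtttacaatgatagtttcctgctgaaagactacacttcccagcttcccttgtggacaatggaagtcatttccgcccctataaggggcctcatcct
Plaur: acccctggagcTGACTCActctttagcaa

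The E-box CAGGTG, or CACCTG on the other strand, was found in 20.2% of all windows and, among these genes, once in the second Tfpi window, 175 bases before that start. It was not among the letters of the F3, Procr, Plaur, Serpine2 and first Tfpi windows. The GC box GGGCGG, or CCGCCC, was found in 35.7% of all windows. It occurred 3 times each in F3 and Plaur, 6 times in Serpine2 and 1 time in each Tfpi window, with no match in Procr. The Plaur matches that begin 105 and 100 bases before the start share a base. So do the Serpine2 matches that begin 55 and 50 bases before the start. No AP-1 match overlapped another motif. A match is a run of letters and does not show that a factor binds there.

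**Figure D1:**
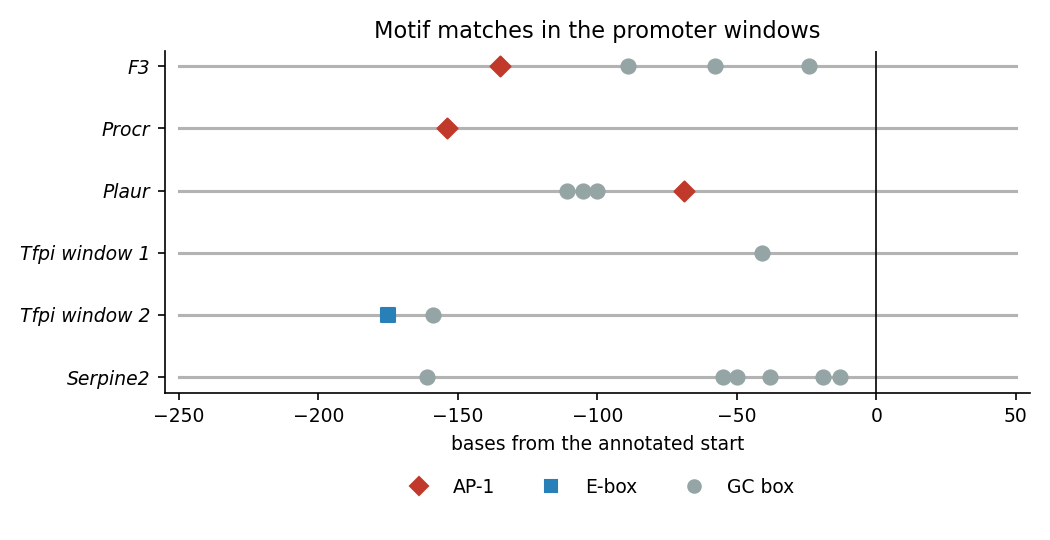
Positions of motif matches in the 6 promoter windows, as bases from the annotated start on which each window is built (vertical line), each symbol at the first base of a match on either strand. The AP-1 matches of F3, Procr and Plaur lie 135, 154 and 69 bases before that start, and the only E-box is in the second Tfpi window.

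Values are log2 expression from RMA, so 1 unit is a 2-fold difference, and each difference is Snail1 KO minus WT. Each gene was read from the probe set that was brightest on average, and was analysed if that average exceeded a log2 value of 3.97, the 40th percentile over the non-control probe sets. This left 7 of the 8 measured members and 12 of their 13 probe sets, with Vwf below the level. The same filter left 12874 of 18193 genes.

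All 7 analysed members had lower values on the Snail1 KO array in their brightest probe set, with differences of -1.62 to -0.07 and a median of -0.49. Over all analysed genes the median was -0.01, and 50.9% were lower by any size. The count and median of members include F3, which passed the filter only through the WT array, where it is high. Nothing is therefore read from them against these values of all genes. Without F3 the member differences ran from -0.66 for Plau to -0.07 for Plaur. F3 was the only member at least 2-fold lower, where 1.84% of analysed genes were, but its Snail1 KO value lies under the filter level, so the size of that difference is uncertain and nothing is read from this share. No member was 2-fold higher, where 0.971% of genes were. Plau was the only other member at least 1.5-fold lower, against 6.08% of genes, and Thbd lay just inside that size. None was 1.5-fold higher, where 5.06% of genes were. By probe set, 10 of 12 were lower, that of F3 again among them, against 47.2% of all analysed probe sets. The exceptions belonged to Plat and Tfpi.

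**Figure D2:**
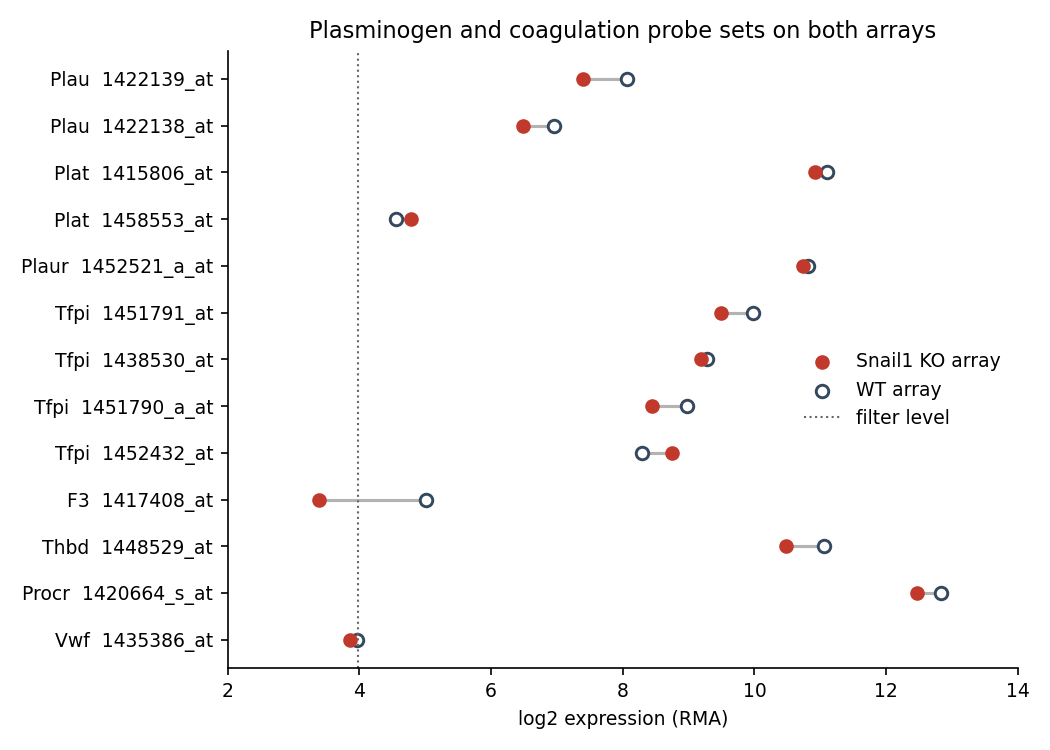
Log2 expression of the 13 probe sets on the Snail1 KO array (filled) and the WT array (open), joined by a line, with the filter level of 3.97 dotted. F3, with its Snail1 KO value under the filter level, shows a gap of 1.62 log2 units. Only 1 probe set each of Plat and Tfpi is higher on the Snail1 KO array.

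Tissue factor, the cell-surface trigger of clotting, had low values on both arrays. The single F3 probe set (1417408_at) had a log2 value of 3.39 on the Snail1 KO array and 5.01 on the WT array, a difference of -1.62 or 3.08-fold. F3 exceeded the filter level on the WT array only, so it was analysed by virtue of the array where it is high. Values this dim are compressed by RMA, and background was not measured for single probe sets. Its difference is therefore not ranked against those of other genes. F3 has no second probe set against which to set this value.

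**Figure D3:**
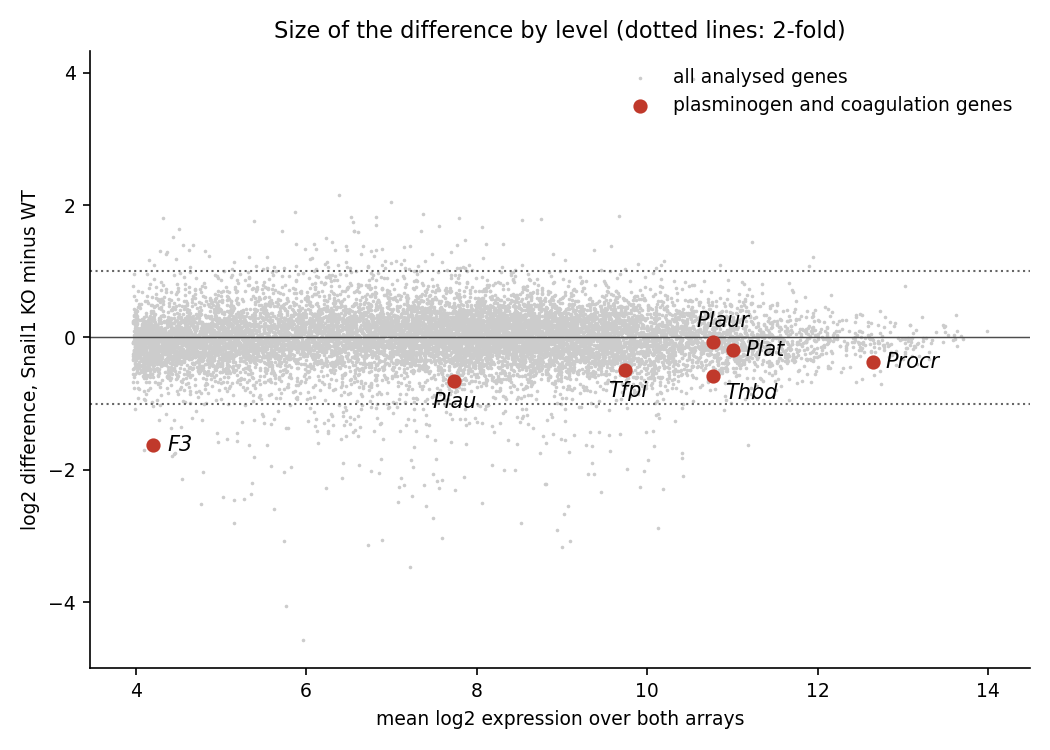
Log2 difference (Snail1 KO minus WT) against mean log2 expression for the 12874 analysed genes (grey) and the 7 analysed plasminogen and coagulation genes (red), with 2-fold marked by dotted lines. All 7 lie below 0, and F3 is the only one beyond the 2-fold line.

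The main inhibitor of the tissue factor complex gave mixed readings. Tfpi, whose product blocks factor Xa and the tissue factor and factor VIIa complex, was covered by 4 probe sets. The brightest (1451791_at) had 9.49 on the Snail1 KO array and 9.98 on the WT array, a difference of -0.49. A set designed from the same sequence record (1451790_a_at) had 8.44 on the Snail1 KO array and 8.97 on the WT array, a difference of -0.53. The other two came from different records and did not follow them. In 1438530_at the values were 9.19 on the Snail1 KO array and 9.29 on the WT array, a difference of -0.10. In 1452432_at they were 8.75 on the Snail1 KO array and 8.30 on the WT array, a difference of 0.45. Tfpi is known to be spliced into forms with different ends, but which form each probe set detects is not given in the sources used here. The spread of 0.98 between its probe sets was wider than in 87.5% of the 658 genes with 4 analysed probe sets, for which the median spread was 0.52. A single direction for Tfpi therefore does not follow from these arrays: the mean over its 4 probe sets was -0.17.

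The protein C pathway receptors were both bright and both lower, by less than 2-fold. Thbd (1448529_at) had 10.48 on the Snail1 KO array and 11.06 on the WT array, a difference of -0.58 or 1.497-fold. Among the 871 genes within 0.5 log2 units of its level, 42 had a more negative difference, which is 4.82%. Procr (1420664_s_at) had 12.46 on the Snail1 KO array and 12.84 on the WT array, a difference of -0.37 or 1.29-fold. Few genes are as bright, and 12 of the 141 near its level had a more negative difference. The Procr probe set is of a type that can bind transcripts of more than 1 gene.

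Of the plasminogen activators, urokinase was lower in both of its probe sets and tissue plasminogen activator showed little difference. The brighter Plau set (1422139_at) had 7.40 on the Snail1 KO array and 8.06 on the WT array, a difference of -0.66 or 1.58-fold. The other (1422138_at) had 6.49 on the Snail1 KO array and 6.95 on the WT array, a difference of -0.46. The sets share a design record and differed from each other by 0.19, against a median of 0.24 over the 3395 genes with 2 analysed probe sets. Among 2216 genes near the level of the brighter set, 107 had a more negative difference.

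Plat, the activator that endothelium releases into blood, had 10.91 on the Snail1 KO array and 11.10 on the WT array in its bright probe set (1415806_at), a difference of -0.19. Its dim set (1458553_at) had 4.78 on the Snail1 KO array and 4.56 on the WT array, a difference of 0.22 in the opposite direction. Averaging both gave 0.02. Plaur, which holds urokinase at the cell surface, had 10.74 on the Snail1 KO array and 10.81 on the WT array (1452521_a_at). Its difference of -0.07 was the smallest of the analysed members, and 42.5% of genes had a more negative one.

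Vwf was not readable at this level. Its 1 probe set (1435386_at) had 3.86 on the Snail1 KO array and 3.96 on the WT array, and both values lie under the filter level. Vwf is widely used as an endothelial marker, yet other endothelial genes were bright on the same arrays. Cdh5, which encodes VE-cadherin, had 11.46 on the Snail1 KO array and 11.34 on the WT array. Pecam1, a junctional adhesion molecule, had 10.22 on the Snail1 KO array and 10.18 on the WT array. All 8 endothelial markers were above the filter level, and 6 were higher and 2 lower on the Snail1 KO array, with a median difference of 0.25 and none past 2-fold. Their summed linear signals were 22783 on the Snail1 KO array and 22598 on the WT array, with Emcn, the brightest, among those lower.

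Snai1, the gene targeted, had 3.59 on the Snail1 KO array and 5.33 on the WT array in its only probe set, a difference of -1.74. Its Snail1 KO value lies under the filter level, as for F3, so the size of this difference is uncertain too. Markers of other cells that make these proteins are given here as measured values, and their part in the results was not tested. All 8 pericyte and smooth muscle markers were measured, and their summed linear signal was 874 on the Snail1 KO array and 3398 on the WT array, 3.89-fold lower on the Snail1 KO array. Of these 8, 7 were lower, 2 of them (Tagln and Acta2) by at least 2-fold, and Rgs5 and Myh11 were below the filter level. Acta2 and Tagln, the brightest of the list, had 10.94 and 10.35 on the WT array and dominate the sum. Pdgfrb had 4.05 on the Snail1 KO array and 4.45 on the WT array, and Kcnj8 had 4.11 and 4.31. Cspg4, the only higher gene of the list, had 5.14 on the Snail1 KO array and 5.03 on the WT array. Perivascular cells are known to express tissue factor, but a link between this list and the F3 value was not tested. In such bulk samples fewer cells of a type and less RNA per cell cannot be told apart. Platelet and megakaryocyte markers, 6 of 8 measured, summed to 157 on the Snail1 KO array and 206 on the WT array, with Pf4 2.37-fold lower and Gp6 and Ppbp below the filter level. Leukocyte markers, all 8 measured, summed to 701 on the Snail1 KO array and 758 on the WT array. Their signal was within 1.08-fold, although Coro1a was 3.89-fold lower, and Ptprc, Itgam and Tyrobp were below the filter level. Fibroblast markers, all 6 measured, summed to 3560 on the Snail1 KO array and 3665 on the WT array, with Lum and Pdgfra below the filter level. Of these, 4 were higher and 2 lower, among them Col3a1, with 6.33 on the Snail1 KO array and 7.33 on the WT array. Epithelial markers, all 6 measured, summed to 135 on the Snail1 KO array and 239 on the WT array, with Krt18 and Krt19 at least 2-fold lower and Cdh1 below the filter level. Hepatocyte markers, all 6 measured, summed to 98.1 on the Snail1 KO array and 114 on the WT array, with Alb, Afp, Fgb and Serpina1b below the filter level. RMA values have no zero, so no marker can be listed as absent.

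Genes placed in a wider plasminogen list, not all of them part of plasminogen activation itself, stayed within 2-fold. Of 25 genes listed, 21 were measured and 15 analysed, with 11 lower, 4 higher and a median difference of -0.10. The 12 that are not members had 8 lower, 4 higher and a median of -0.09. The largest of these differences were small and several were not shared by a second probe set. Mrc2, a collagen and urokinase receptor-associated protein, had 4.33 on the Snail1 KO array and 4.80 on the WT array, but another of its probe sets differed by 0.43. S100a10, the annexin A2 partner that binds plasminogen, had 11.77 on the Snail1 KO array and 12.23 on the WT array, with 2 further probe sets at -0.41 and 0.08. Pdpn, the membrane glycoprotein podoplanin, had 11.62 on the Snail1 KO array and 11.42 on the WT array. Serpini1, neuroserpin, an inhibitor of tissue plasminogen activator, had 7.54 on the Snail1 KO array and 7.35 on the WT array, and a further probe set was 0.96 higher.

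Of 36 coagulation genes listed, 34 were measured and 16 analysed, with 10 lower and 6 higher. F3 and Tfpi2 were past 2-fold in the lower direction and no gene in the other. The median was -0.36, but 4 of the 16 are members, and the other 12 were split into 6 lower and 6 higher with a median of -0.08. The 18 dim genes among those measured, which include fibrinogen chains, prothrombin (F2) and Vwf, lay between 2.20 and 3.96 on both arrays. Their differences were at most 0.24 in size.

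Tfpi2, a second Kunitz-type inhibitor that blocks plasmin among other proteases, had 9.28 on the Snail1 KO array and 10.70 on the WT array, 2.69-fold lower and bright on both. F2rl3, the thrombin receptor PAR4, had 4.22 on the Snail1 KO array and 5.07 on the WT array. The thrombin receptor PAR1, F2r, read 11.49 on both arrays where it was brightest, and a further probe set gave a difference of -0.45. Mcfd2, which carries factors V and VIII through the secretory pathway with Lman1, had 10.10 on the Snail1 KO array and 10.60 on the WT array. Gas6, a vitamin K-dependent ligand of TAM receptors, had 11.53 on the Snail1 KO array and 10.69 on the WT array, 1.78-fold higher, while its other analysed probe set differed by -0.06.

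**Figure D4:**
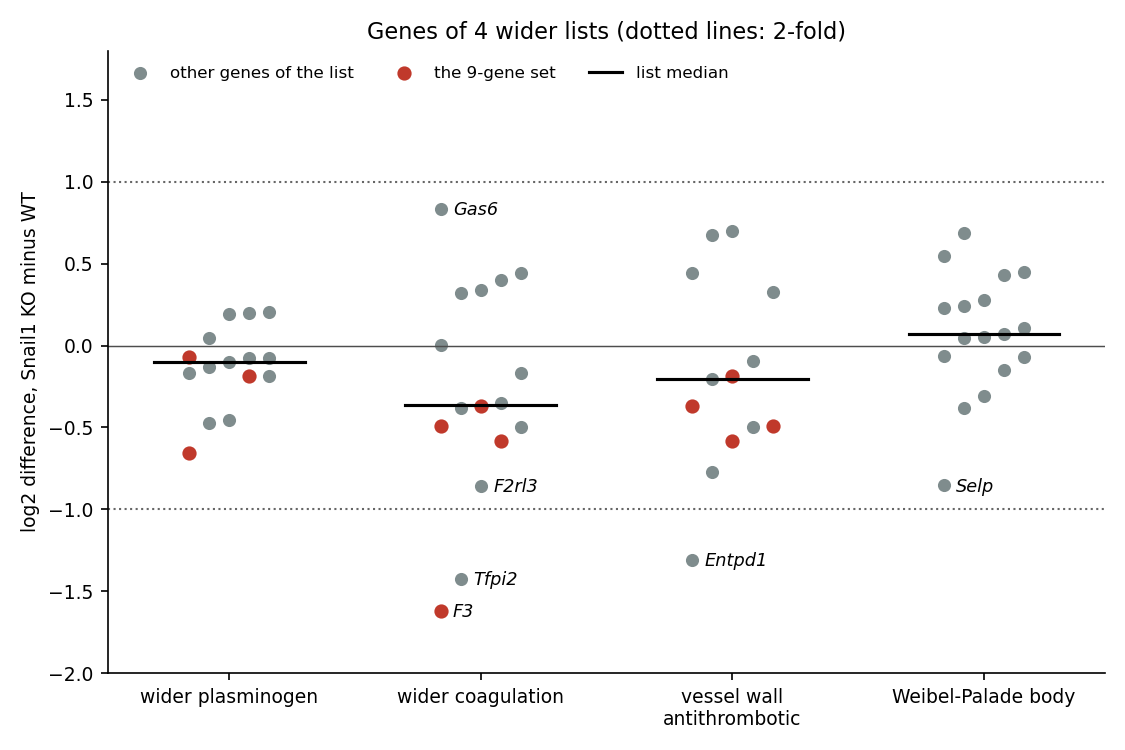
Log2 difference (Snail1 KO minus WT) of each analysed gene of the 4 wider lists, spread sideways for legibility, with the 9-gene set in red, list medians as black bars and 2-fold as dotted lines. F3, Tfpi2 and Entpd1 lie beyond the lower line and no gene lies beyond the upper one.

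Antithrombotic genes of the vessel wall pointed both ways. Of 15 listed, 14 were measured and 13 analysed, with 9 lower, 4 higher and a median of -0.21. The 9 that are not members had 5 lower, 4 higher and a median of -0.09. Entpd1, the ectonucleotidase CD39, which removes the platelet agonist ADP, had 4.93 on the Snail1 KO array and 6.24 on the WT array, 2.48-fold lower. Its 2 further probe sets differed by -1.64 and -1.79, so all were lower. Ptgis, prostacyclin synthase, had 5.35 on the Snail1 KO array and 6.12 on the WT array. In the other direction, Klf2, a flow-responsive factor known to drive thrombomodulin, had 9.88 on the Snail1 KO array and 9.18 on the WT array, 1.62-fold higher. A link between Klf2 and Thbd, which was 1.497-fold lower, was not tested. Hs3st1, which makes antithrombin-binding heparan sulfate, had 8.97 on the Snail1 KO array and 8.29 on the WT array, 1.60-fold higher.

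Although Vwf was dim, genes of its storage granule were measured. Of 22 genes listed for Weibel-Palade bodies, 20 were measured and 17 analysed, with 6 lower, 11 higher, a median of 0.07 and none past 2-fold in its brightest probe set. Selp, P-selectin, the leukocyte receptor stored with von Willebrand factor, had 9.46 on the Snail1 KO array and 10.32 on the WT array, a difference of -0.85. Its other probe sets differed by -1.11 and -1.32, so all 3 were lower. Stxbp5, a syntaxin-binding protein, had 9.01 on the Snail1 KO array and 8.32 on the WT array, with further sets between -0.08 and 0.27. Rab3d, a granule GTPase, had 7.75 on the Snail1 KO array and 7.20 on the WT array, and its further sets were higher by 0.29 and 0.40. Gpihbp1, a capillary carrier of lipoprotein lipase that was placed in this list although it is not known as a granule protein, had 7.66 on the Snail1 KO array and 7.21 on the WT array.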

How the data were processed

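The deposited table holds 1 log2 expression value per probe set (45101, of which 64 are array controls) and array. The submitters' processing notes name RMA and the affy package for how the authors made these log2 values, with no version. RMA applies quantile normalization between arrays, which hides a change of total mRNA, and compresses differences of dim probe sets. Median values were 4.70 for Snail1 KO and 4.66 for WT. RNA was extracted with Trizol and 250 ng amplified, per the labels' protocols.

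Gene symbols came from GEO's platform annotation; those carrying no symbol or more than 1 were not used. Differences, counts at 2-fold (1 log2 unit) and medians were computed with Python 3.11.15 and pandas 2.3.3, and the counting was tested on simulated data. Differences of the analysed genes had a robust SD of 0.32. It includes probe error and replaces no replicate, and the number of arrays limits the precision.

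Named genes were all members, Snai1, Cdh5, Pecam1 and the 4 non-member genes with the largest difference in each wider list. F2r, Lman1, F2 and the other dim plasma genes, and the marker genes singled out beside the cell type sums were chosen after their values were seen. Members and lists were chosen with earlier results of these data known. Genes of similar pattern were not ranked, since 2 arrays give no measure of likeness. Alternatives changed the probe set used, the filter, the centring and the size threshold.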

Additional observations from a re-analysis of the deposited data

How the results depend on the processing

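Of 26 recalculations of member differences, 25 kept their sign, but most could not have changed it. Dropping probe sets or raising the filter left every remaining value as it was, as did averaging for genes with 1 probe set. Centring only made negative differences more negative. Only the averages of Plau, Plat and Tfpi could reverse, so the count of 25 is no measure of stability. The exception was Plat, at 0.018 when its probe sets were averaged, while Tfpi moved to -0.17 under the same setting. The probe sets of Plat, and those of Tfpi, differ in direction. A change of over 0.32, the robust SD over genes, was counted as a move. Without probe sets that can bind several transcripts, Procr has no value. With the filter at the 60th percentile (a log2 value of 5.64) F3 is left out, so the members 2-fold lower numbered 0 and the coagulation genes 1, by construction. That filter also leaves out Entpd1, so the antithrombotic genes 2-fold lower numbered 0, again by construction. With probe sets averaged, 77 genes in all were 2-fold higher, and 1 Weibel-Palade gene was 2-fold lower. At 1.5-fold, 783 genes in all were lower and 652 higher. At that size 2 member probe sets were lower, as were 1 plasminogen, 3 coagulation, 2 antithrombotic and 1 Weibel-Palade gene, and 1 coagulation, 2 antithrombotic and 1 Weibel-Palade gene were higher. At 3-fold, 90 genes in all were lower and 23 higher, with 1 coagulation gene and 0 antithrombotic genes lower. With no filter the coagulation median was -0.10, as dim genes differed little, and the other counts and medians moved by less than these measures. Centring each array on its median, a shift of 0.04, changed no sign of a member or list median. No paired analysis was possible because each group holds 1 array, and no array could be left out for the same reason. Without replicates the values for F3 and the other members cannot be separated from variation between cultures.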

Other observations

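Serpins outside the lists above, the family to which protease nexin-1 belongs, were looked at after the values were seen. Of 13 such genes above the filter level, 10 had lower and 3 had higher values in Snail1 KO cells, with a median log2 difference of -0.29. Over all analysed genes 50.9% were lower and the median was -0.01. Past 2-fold, 1 of the 13 was lower and 1 higher, where 1.84% and 0.971% of all analysed genes were. Since the family was picked after the values were seen, no family-wide shift is read from these counts. Serpinb6b had 8.77 on the Snail1 KO array and 10.76 on the WT array, 3.96-fold lower. Serpinb11 had 8.70 on the Snail1 KO array and 6.89 on the WT array, 3.51-fold higher. Serpinh1, the collagen chaperone HSP47, had 10.05 on the Snail1 KO array and 11.02 on the WT array, and its other analysed probe set differed by -0.94. Serpinb6 and Serpinb9 genes have close copies in the mouse, so these readings are uncertain as to the copy.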
